A study of Homo sapiens with 6 samples.

Results

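ATF4 and the genes of the integrated stress response were followed in RNA-Seq counts of FAM83H-AS1-silenced and negative control cells. The group was a list of 45 genes taken by gene symbol and put together with earlier results of these data known. Its counts therefore describe the list and are not independent evidence about it. It held 3 of the kinases that phosphorylate eIF2alpha, and ATF4 and its partner transcription factors. The rest were targets of ATF4 in feedback, amino acid synthesis, amino acid transport and tRNA charging. All 45 were among the 40173 genes of the count table, and all 45 passed the filter on low counts together with 15250 genes in all. Cells labelled A549, a human lung adenocarcinoma line, received either an siRNA against FAM83H-AS1, a long noncoding RNA, or a negative control, with 3 libraries per group and no other treatment named in the labels. Both groups came from a single line, and the study's methods place the harvest on the day after transfection. Which siRNA of those listed for FAM83H-AS1 was used is not given in the sources used here, nor is whether the libraries came from separate cultures, so that p-values measure only the spread between these libraries, which may be technical.

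In the integrated stress response, kinases that sense stresses such as unfolded protein, uncharged tRNA, heme shortage or mitochondrial stress phosphorylate the translation initiation factor eIF2alpha. Most protein synthesis then slows, while the mRNA of ATF4, which carries short upstream open reading frames, is translated more. ATF4 protein, often paired with a C/EBP factor, turns on genes that make, import and load amino acids, and also DDIT3 (CHOP), ATF3 and PPP1R15A, the last of which brings the phosphatase back to eIF2alpha. Because ATF4 is set mostly at translation, its mRNA level measured here is not a measure of ATF4 protein.

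The libraries held 9738291 to 17742643 counts. FAM83H-AS1 stood at 14.5, 15.98 and 17.3 CPM, counts scaled to the TMM-normalised library size, in the controls and at 4.59, 4.44 and 5.57 CPM in the silenced libraries, 30.6% of the control mean (log2 fold change -1.70, SE 0.148, adjusted p = 7.99e-05, edgeR). Control replicate 3 had 3.22% of its counts on the ribosomal pseudogene RNA5-8SP6, against 0.241% to 0.448% elsewhere. The markers went against the A549 label in part. CDKN2A, which the A549 line is known to lack through a homozygous deletion, was read at 48.2 to 74.8 CPM in the 6 libraries, and its neighbours CDKN2B and MTAP, added after that value was seen, at 12.6 to 16.3 and 32.6 to 39.2 CPM. ALDH1A1, abundant in A549, had 0 counts in 5 libraries and 2 counts in silenced replicate 3, EPCAM did not exceed 4.49 CPM, AKR1B10 2.44, CDH1 1.66 and KRT19 1.21 CPM, while AKR1C1 lay between 71.7 and 130 CPM and KRT8, KRT18 and KRT7 were abundant (KRT8 1594 to 2081 CPM). Of the 9 epithelial and A549 markers, 8 were tested, KRT7 and KRT18 fell (log2 fold change -0.57 and -0.43, adjusted p = 0.00116 and 0.00266, edgeR) and AKR1B10 rose (1.31, adjusted p = 0.0135), and their summed level was 4500 to 4858 CPM in control and 3645 to 3681 CPM in silenced libraries. The cells are therefore called only the cells labelled A549. Of 10 markers of immune, endothelial and stromal cells, 4 had at most 3 counts in any library (CD3E and LYZ were at 0 in all 6). The summed level of the 10 was 156 to 178 CPM in control and 259 to 298 CPM in silenced libraries, most of it CD68. Without CD68 it was 30.5 to 37.0 and 35.0 to 44.3 CPM. CD68 was the only 1 of 4 tested that passed, and it rose (log2 fold change 0.88, adjusted p = 9.93e-05, edgeR). The part of these changes in the results was not tested. In bulk RNA, fewer cells of a type and less RNA per cell cannot be told apart.

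After FAM83H-AS1 silencing, more of the listed genes fell than rose in RNA level. Of the 45 genes, 3 rose, 11 fell and 31 did not pass an adjusted p under 0.05 in edgeR's quasi-likelihood test, adjusted by Benjamini-Hochberg over all 15250 genes. The 14 that passed were 31.1% of the list, where 17% of all tested genes passed. The 11 that fell were 24.4% of the list against 8.27% of all tested genes, and the 3 that rose were 6.67% against 8.75%. The genes that rose were ATF3, DDIT3 and PPP1R15A, all known for the terminal and feedback arm of the response. Those that fell were ATF4 itself, the transcription factors JDP2 and NUPR1, the glutathione-degrading enzyme CHAC1, 3 enzymes of serine synthesis, 2 further amino acid enzymes, 1 transporter and 1 tRNA synthetase. With a fold change over 2 asked for as well, the threshold of the study's methods, 3 of the 45 members (6.67%) were called (ATF3, DDIT3 and NUPR1), beside 2.14% of all tested genes. The study's results section names a stricter FDR under 0.01 at that fold change, under which edgeR called the same 3 members. At an adjusted p under 0.05 the count was 1 without control replicate 1, where NUPR1 alone remained. ATF3 then stood at a log2 fold change of 0.90 and DDIT3 at 0.88.

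The median log2 fold change of the 45 genes was -0.11, where that of all tested genes was -0.00067, with 26 members below 0 and 19 above. Leaving out 1 library at a time moved the members' median between -0.15 (without control replicate 1) and -0.037 (without control replicate 3). In 24 members (53.3%) every silenced library lay to the same side of every control library, against 36.6% of all tested genes, lower in 16 and higher in 8. With 3 against 3 libraries an exact permutation test has a smallest possible p of 0.1, and each gene's call therefore depends on the dispersion edgeR pools over the whole table. By role, the median log2 fold change was 0.06 for the 3 kinases and -0.14 for the 8 transcription factors. It was 0.04 for the 8 feedback and stress effectors, -0.26 for the 6 serine and one-carbon enzymes and -0.20 for the 6 other amino acid enzymes. For the 7 transporters it was 0.01 and for the 7 tRNA synthetases -0.12. In the same order of roles, 0%, 62.5%, 25%, 50%, 33.3%, 14.3% and 14.3% passed, against 17% of all tested genes.

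**Figure D1:**
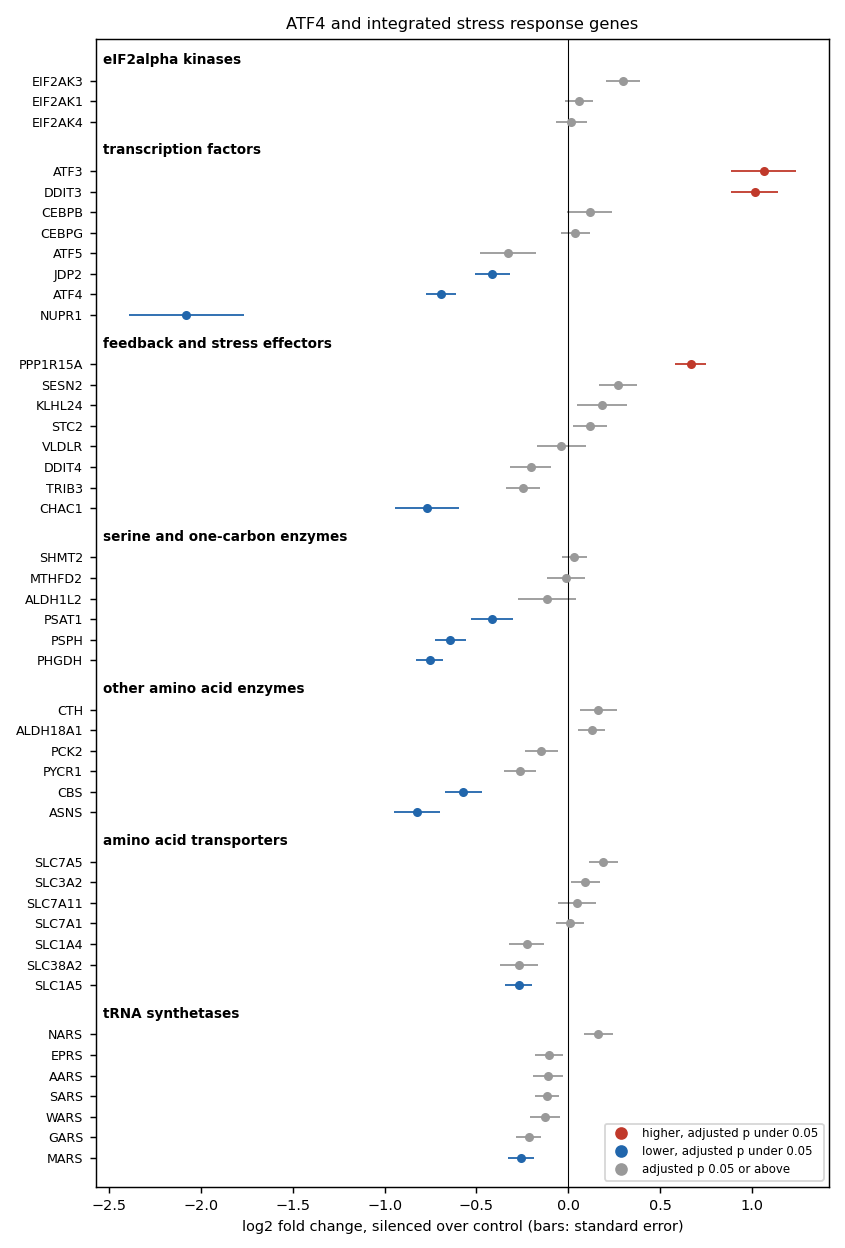
Log2 fold change, silenced over control, of the 45 genes in order within each role. Points are edgeR estimates, bars their standard errors, and the colour marks the 3 that rose, the 11 that fell and the 31 that did not pass. ATF3 and DDIT3 lie near 1 on the right and NUPR1 at -2.08 on the left, and the 31 that did not pass lie between -0.33 and 0.30.

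ATF4 and its C/EBP partners bind the C/EBP-ATF response element, for which the letters TGATGNAA were searched on both strands from 250 bases before to 50 bases after each RefSeq transcript start (GRCh38.p14). Of the 36 members with a promoter in that table, 12 (33.3%) had a match in the window of any listed start, with a 95% Wilson interval of 20.2% to 49.7% that covers counting error only. Among all tested genes with a promoter it was 265 of 10286 (2.58%), and among all RefSeq genes with a promoter 1217 of 27305 (4.46%). The members were listed as ATF4 targets partly because such sites are known in them, so that this share describes how the list was made and is no measure of the silencing. Within the list, 5 of 9 members that fell, 1 of 3 that rose and 6 of 24 that did not pass had a match. The windows of the 6 that passed are shown because these members had both a match and a change that passed. Whether ATF4 binds at these matches was not tested. Each is written 5′ to 3′ on the strand of its gene with the match in capitals, which reads TTGCATCA where the match is on the opposite strand. JDP2, CHAC1, SLC1A5 and MARS carry the same 8 letters, TGATGCAA, while ATF3 and ASNS carry other letters at the free position.
ATF3, chr1:212565204-212565235, plus strand: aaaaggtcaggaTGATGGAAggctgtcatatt
JDP2, chr14:75427994-75428025, plus strand: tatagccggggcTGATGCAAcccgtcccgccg
CHAC1, chr15:40953250-40953281, plus strand: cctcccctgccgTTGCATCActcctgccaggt
ASNS, chr7:97872457-97872488, minus strand: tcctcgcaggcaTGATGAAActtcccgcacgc
SLC1A5, chr19:46784892-46784923, minus strand: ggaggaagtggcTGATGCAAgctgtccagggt
MARS, chr12:57488052-57488071, plus strand: ggccggttccggTTGCATCA

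Counted from the start site, the first base of the match lay at -191 in ATF3, -16 in JDP2, -209 in CHAC1, -68 in ASNS, -97 in SLC1A5 and -4 in MARS. ATF3, whose RNA rose, and CHAC1, whose RNA fell, thus both had the letters about equally far upstream of such a start. The exact letters TGATGCAA were found in 8 of 36 members (22.2%) and in 72 of 10286 tested genes (0.7%). The longer form TGATGNAAT was found in 0 of 36 members and in 66 of 10286 tested genes (0.642%), a share so low that 0 of 36 says little. No match was found in the windows of ATF4, DDIT3, PPP1R15A, PHGDH, PSAT1, CBS and TRIB3, which says only that these letters are not in those windows. Genes that fell in the whole table had a match in 21 of 943 promoters (2.23%) and genes that rose in 45 of 1006 (4.47%).

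**Figure D2:**
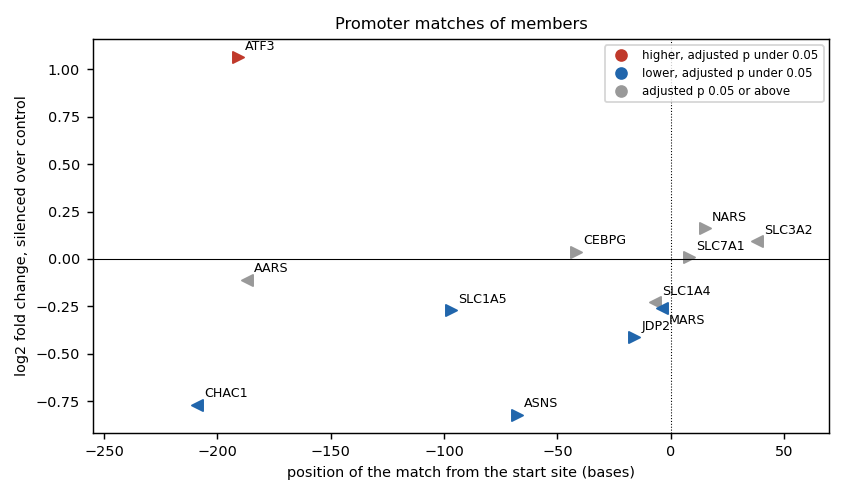
Position of the first base of each match to TGATGNAA against the log2 fold change of the gene, for the 12 members with a match. Positions are in bases from the RefSeq transcript start whose window held the match. The triangle points right for the strand of the gene and left for the opposite strand, and the colour marks the test. Matches lie from -209 (CHAC1) to 38 (SLC3A2), and the 5 members that fell, the 1 that rose and the 6 that did not pass are spread along that range.

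None of the 3 eIF2alpha kinases of the list passed the test, where 17% of all tested genes did. EIF2AK3 (PERK), the sensor of unfolded protein in the endoplasmic reticulum, was at 19.4, 19.6 and 19.7 CPM in control and 22.8, 25.1 and 24.4 CPM in silenced libraries. Its groups did not overlap, and its log2 fold change of 0.30 (SE 0.0932) did not pass, at an adjusted p of 0.0502 by edgeR. EIF2AK1 (HRI), the heme-regulated kinase that also relays mitochondrial stress, was at 274, 311 and 294 CPM against 291, 328 and 298 CPM. The groups overlapped (log2 fold change 0.06, SE 0.0763, adjusted p = 0.642, edgeR). EIF2AK4 (GCN2), which senses uncharged tRNA, was at 82.9, 89.8 and 92.9 CPM against 83.3, 98.3 and 87.5 CPM (log2 fold change 0.02, SE 0.085, adjusted p = 0.916, edgeR). EIF2AK2 (PKR), a further eIF2alpha kinase outside the list, was at 28.5 CPM in control and 33.8 CPM in silenced libraries. Its groups did not overlap, and it did not pass either (log2 fold change 0.24, adjusted p = 0.124, edgeR). These are RNA levels, and the phosphorylation that activates the kinases was not measured here. EIF2AK1 shares 532 exon bases with AIMP2 on the opposite strand in GENCODE 29, and whether the counting used strand is not given in the sources used here.

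ATF4, the central transcription factor of the response, spans chr22:39519695-39522685 on the plus strand (GRCh38, GENCODE 29), and no other annotated gene overlapped its exons. Its level was 309, 372 and 310 CPM in control and 206, 204 and 203 CPM in silenced libraries. The 3 silenced libraries lay within a few CPM of each other and all below the lowest control. The mean fell from 330 ± 36.1 to 204 ± 1.52 CPM (SD, n = 3), 61.8% of control (log2 fold change -0.69, SE 0.0825, adjusted p = 0.000493, edgeR). Without any 1 library or under any other setting the value stayed between -0.74 and -0.60. Per length, ATF4 went from 131 to 81.2 RPKM, the CPM per kilobase of exon, and among the members only SLC7A5 and DDIT4 stood higher in control. Reads on the 4 processed copies of ATF4 in the table came to 5.02% of the counts on ATF4 itself.

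ATF3 and DDIT3 rose while ATF4 fell. ATF3, a stress-induced repressor of the same bZIP family, was at 8.12, 14.8 and 10.4 CPM in control and 21.7, 22.7 and 25.4 CPM in silenced libraries. Every silenced library was above every control, and the mean rose from 11.1 ± 3.38 to 23.3 ± 1.94 CPM, 209% of control (log2 fold change 1.06, SE 0.176, adjusted p = 0.00307, edgeR). DDIT3 encodes CHOP, a pro-apoptotic C/EBP-like factor induced late in unresolved stress. Its level was 20.7, 30.4 and 26.9 CPM in control against 54.8, 56.5 and 47.3 CPM in silenced libraries, 203% of control (log2 fold change 1.01, SE 0.128, adjusted p = 0.000732, edgeR). The lowest silenced library thus stood well above the highest control. Both genes passed the test in every setting tried, with DDIT3 between 0.88 and 1.13 and ATF3 between 0.90 and 1.31 on the log2 scale. DDIT3 shares 355 exon bases with MARS, a member on the opposite strand that fell, so that reads of one could be counted on the other if strand was not used.

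NUPR1, a small stress-induced chromatin protein, had the largest fall of the list. It spans chr16:28532708-28539174 (minus strand) and had 31, 28 and 44 counts in control and 7, 5 and 10 counts in silenced libraries. In CPM these were 3.19, 2.42 and 2.60 against 0.684, 0.462 and 0.743, with a wide gap between groups but few reads behind each value. The silenced mean was 23% of control (log2 fold change -2.08, SE 0.312, adjusted p = 0.00179, edgeR), which placed NUPR1 at rank 41 from the lowest of the 15250 tested genes. The value lay between -2.23 and -1.91 in 13 other settings, and NUPR1 is not tested where 10 counts in every library are required. JDP2, a bZIP repressor, was at 40.4, 39.6 and 37.3 CPM in control and fell to 31.5, 26.1 and 30.3 CPM without overlap (log2 fold change -0.41, SE 0.0939, adjusted p = 0.0135, edgeR).

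The other 3 transcription factors did not pass. CEBPB, the partner that ATF4 often dimerises with, was at 111 ± 11.2 CPM in control and 120 ± 21.0 CPM in silenced libraries (log2 fold change 0.12, adjusted p = 0.553, edgeR). CEBPG, another dimer partner, stood at 43.7 and 45.0 CPM (0.04, adjusted p = 0.773, edgeR), and ATF5, a mitochondrial stress factor, had a log2 fold change of -0.33 (adjusted p = 0.17, edgeR). The 8 transcription factors thus held 2 that rose (25%, against 8.75% of all tested genes), 3 that fell (37.5% against 8.27%) and 3 that did not pass. Their summed level was 84.2% of control.

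**Figure D3:**
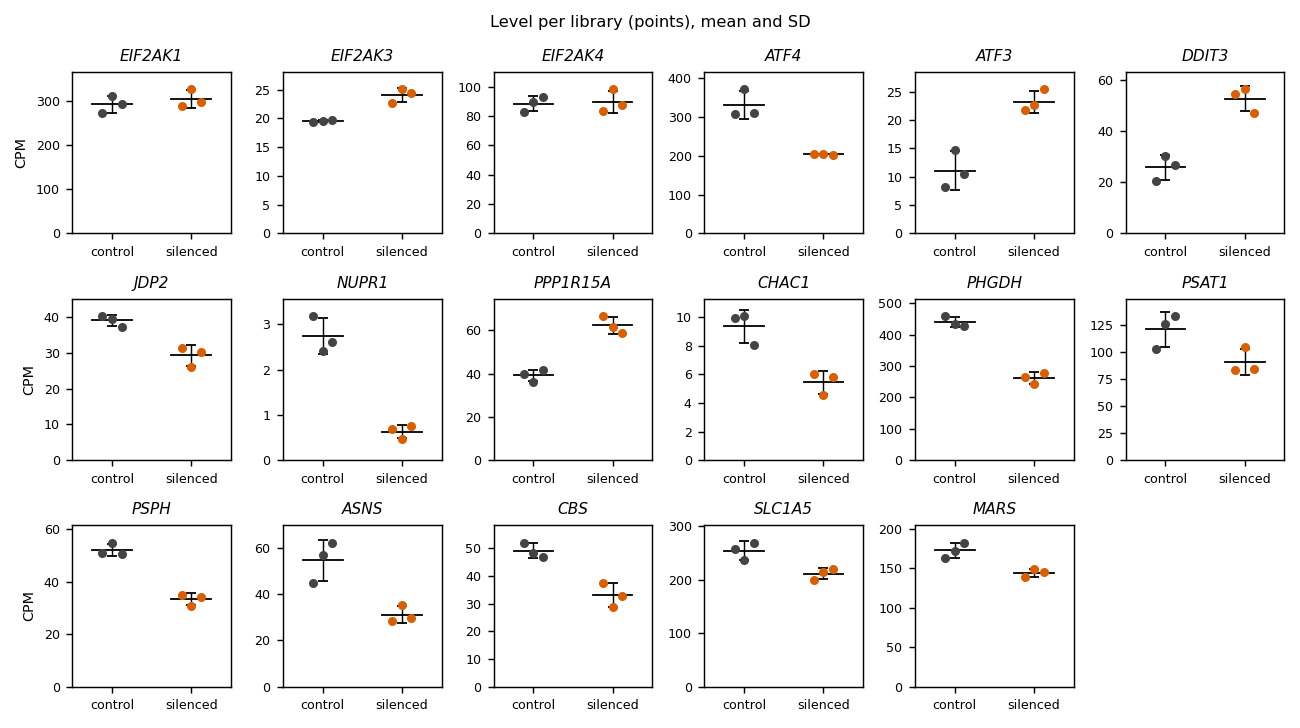
Level in CPM in each library (points) of the 3 kinases and the 14 members that passed, with the group mean and SD as bars; each panel has its own axis from 0. The silenced points of ATF4 lie together near 204 CPM below all controls, those of ATF3, DDIT3 and PPP1R15A lie above all controls, and only PSAT1 among the 14 has groups that overlap.

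Among the feedback and stress effectors, 1 of 8 rose and 1 fell (12.5% each, against 8.75% and 8.27% of all tested genes). PPP1R15A (GADD34), the inducible subunit that directs phosphatase to eIF2alpha, was at 39.9, 36.1 and 41.4 CPM in control and 66.7, 61.4 and 58.7 CPM in silenced libraries. All silenced libraries were higher, and the mean rose from 39.1 ± 2.75 to 62.3 ± 4.06 CPM, 159% of control (log2 fold change 0.67, SE 0.0855, adjusted p = 0.000821, edgeR). CHAC1, a gamma-glutamyl cyclotransferase that breaks down glutathione, was at 9.97, 10.1 and 8.04 CPM against 6.05, 4.53 and 5.80 CPM. It fell without overlap (log2 fold change -0.77, SE 0.175, adjusted p = 0.0138, edgeR), but not past the threshold without control replicate 2 (adjusted p = 0.0513, edgeR). The other 6 ranged from -0.25 to 0.27. They include DDIT4, an inhibitor of mTORC1, at 376 and 326 CPM (-0.21, adjusted p = 0.232, edgeR), TRIB3, a pseudokinase that restrains ATF4, at 96.2 and 81.1 CPM (-0.25, adjusted p = 0.0971, edgeR), and STC2, a secreted glycoprotein, at 50.2 and 54.5 CPM (0.12, adjusted p = 0.409, edgeR). SESN2, KLHL24 and VLDLR were the rest.

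The 3 enzymes that make serine from a glycolytic intermediate all fell. PHGDH, which takes the first step, spans chr1:119648411-119744226 (plus strand) and was at 460, 435 and 429 CPM in control against 266, 241 and 277 CPM in silenced libraries. The groups were far apart, and the mean fell from 441 ± 16.3 to 261 ± 18.3 CPM, 59.3% of control (log2 fold change -0.75, SE 0.0733, adjusted p = 0.000154, edgeR), the smallest adjusted p of the list. PSAT1, the aminotransferase of the following step, was at 103, 126 and 133 CPM against 83.3, 104 and 84.4 CPM. Its groups overlapped by 1 library on each side (log2 fold change -0.42, SE 0.114, adjusted p = 0.0303, edgeR), and it did not pass without control replicate 2 or 3 or silenced replicate 1 or 3 (adjusted p up to 0.124). PSPH, the phosphatase of the last step, at chr7:56011051-56051604 (minus strand), was at 50.7, 54.8 and 50.6 CPM against 35.1, 30.8 and 34.0 CPM (log2 fold change -0.64, SE 0.0837, adjusted p = 0.000893, edgeR), without overlap. The copy PSPHP1 held 45.0% as many counts as PSPH and stood at 23.4, 21.2 and 20.6 CPM in control and 14.9, 15.8 and 19.5 CPM in silenced libraries, so that the split of reads between these near-identical genes is uncertain.

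The 3 one-carbon enzymes of the list did not pass, so that 50% of the 6 serine and one-carbon enzymes fell, against 8.27% of all tested genes. SHMT2, which converts serine to glycine in mitochondria, was at 314 CPM in control and 321 CPM in silenced libraries (log2 fold change 0.03, adjusted p = 0.782, edgeR). MTHFD2, the mitochondrial folate dehydrogenase, was at 128 and 127 CPM (-0.01, adjusted p = 0.948, edgeR), and ALDH1L2, a mitochondrial folate enzyme, had a log2 fold change of -0.11 (adjusted p = 0.661, edgeR). The summed level of the 6 serine and one-carbon enzymes was 1075, 1087 and 1061 CPM in control and 853, 851 and 849 CPM in silenced libraries, 79.2% of control, of which PHGDH made up most of the difference.

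Of the 6 other amino acid enzymes, 2 fell and 0 rose (33.3% passed, against 17% of all tested genes). ASNS, asparagine synthetase, has its match to the response element printed above, 68 bases before a RefSeq start. It was at 44.9, 56.7 and 62.2 CPM in control and 28.2, 35.1 and 29.7 CPM in silenced libraries. The highest silenced library stayed below the lowest control, and the mean was 56.8% of control (log2 fold change -0.82, SE 0.125, adjusted p = 0.00192, edgeR). CBS, cystathionine beta-synthase of the transsulfuration pathway, was at 52.1, 48.5 and 47.0 CPM against 37.5, 28.9 and 32.9 CPM. This was also a fall without overlap, to 67.3% of control (log2 fold change -0.57, SE 0.101, adjusted p = 0.00428, edgeR). The following enzyme of that pathway, CTH, had a log2 fold change of 0.16 (adjusted p = 0.296, edgeR). Of the proline enzymes, ALDH18A1 was at 270 and 295 CPM (0.13, adjusted p = 0.255, edgeR) and PYCR1 at 203 and 169 CPM (-0.26, adjusted p = 0.0658, edgeR), and mitochondrial PCK2 was at 37.4 and 33.9 CPM (-0.15, adjusted p = 0.289, edgeR).

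Among the 7 transporters, 0 rose and 1 fell (14.3% passed, against 17% of all tested genes), and their summed level was 104% of control. SLC1A5, the glutamine carrier ASCT2, was at 258, 236 and 270 CPM in control and 199, 214 and 220 CPM in silenced libraries, 82.9% of control. Its groups did not overlap (log2 fold change -0.27, SE 0.0752, adjusted p = 0.0319, edgeR), yet it did not pass without control replicate 1 or 3 or silenced replicate 1 or 2 (adjusted p up to 0.141). The other 6 carriers ranged from -0.27 to 0.19 and did not pass. SLC7A5 (LAT1), which exchanges glutamine for large neutral amino acids, had the highest level per length of all members, 284 RPKM in control and 325 RPKM in silenced libraries (log2 fold change 0.19, adjusted p = 0.125, edgeR). Its heavy chain SLC3A2 was at 449 and 479 CPM (0.09, adjusted p = 0.446, edgeR), and SLC38A2, the amino acid-starvation-induced carrier SNAT2, was at 374 and 310 CPM (-0.27, adjusted p = 0.0997, edgeR). The cystine carrier SLC7A11, the arginine carrier SLC7A1 and the neutral amino acid carrier SLC1A4 were the rest.

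Of the 7 cytosolic tRNA synthetases, 1 passed (14.3%, against 17% of all tested genes) and 6 had a log2 fold change below 0. MARS, which charges methionine, was at 163, 172 and 183 CPM in control and 139, 150 and 145 CPM in silenced libraries. It fell to 83.7% of control without overlap (log2 fold change -0.26, SE 0.0725, adjusted p = 0.0335, edgeR), but did not pass without control replicate 2 or 3 or silenced replicate 1 or 3, nor with library size alone as the scaling (adjusted p up to 0.140). GARS, for glycine, had a nearly equal difference, 297 against 256 CPM, and an adjusted p of 0.0506 by edgeR. AARS, for alanine, was at 464 and 430 CPM (log2 fold change -0.11, adjusted p = 0.396, edgeR) and EPRS, for glutamate and proline, at 403 and 375 CPM (-0.10, adjusted p = 0.382, edgeR). NARS, for asparagine, was the only one above 0, at 0.16 (adjusted p = 0.189, edgeR), although the enzyme that makes asparagine, ASNS, fell. SARS and WARS, for serine and tryptophan, lay at -0.12 and -0.13.

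**Figure D4:**
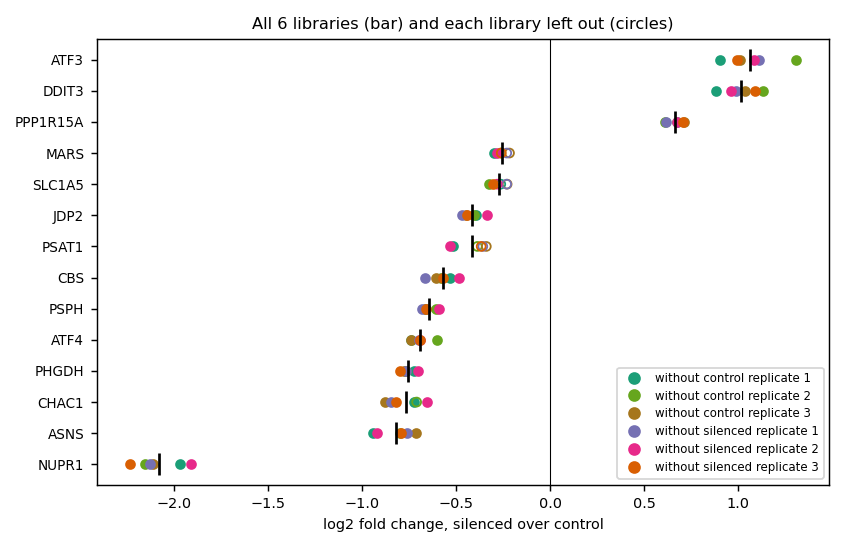
Log2 fold change of the 14 members that passed when each of the 6 libraries was left out in turn (circles, open where the gene no longer passed) beside the value with all libraries (bar). The direction of each gene stays the same throughout, and ATF3 and DDIT3 drop to 0.90 and 0.88 without control replicate 1.

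Of the 14 members that passed, 9 did so under all 14 alternatives at the same threshold, NUPR1 did so under the 13 in which it was tested, and 4 (CHAC1, PSAT1, SLC1A5 and MARS) lost the call in at least 1, and 0 of the 14 changed direction. Of the 31 others, 7 passed in at least 1 alternative (EIF2AK3, GARS, PYCR1, SLC38A2, SLC7A5, TRIB3 and DDIT4). With library size alone as the scaling, 5 members passed as higher and 10 as lower. Over all 15250 tested genes it was 1555 and 991 there, against 1334 and 1261 in the main fit. At an adjusted p under 0.01, 3 members passed as higher and 6 as lower, and the counts over all tested genes at that threshold are not given here.

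A sequence of 7 bases, CCAATAA, was searched in the 3′-UTRs because earlier results of these data had linked it to genes that fell. Among all tested genes with a 3′-UTR it occurred in 1469 of 11553 (12.7%), and among those that fell in 321 of 1059 (30.3%). The word was picked from these same data, so that the difference between these shares is not independent evidence. Among the members it occurred in 5 of 45 (11.1%), and among the 11 that fell in 1 (9.09%), which was ATF4. The site of ATF4 begins at base 58 of an annotated 3′-UTR of 83 bases and is shown, with the word in capitals, since it is the only one in a member that fell.
ATF4, 3′-UTR site: agctgtgtgttCCAATAAattattttgta
The other 4 members with the word, EIF2AK3, ALDH1L2, PCK2 and SLC7A11, did not pass. PHGDH, PSPH, ASNS, CBS, CHAC1, NUPR1, JDP2, PSAT1, SLC1A5 and MARS fell without it in any annotated 3′-UTR searched.

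A further 61 genes around the response, in 4 lists, were read beside the members. Of these, 59 were tested, since FGF21 had 0 counts in all libraries and LAMP3 was below the filter. Among the 59, 3 rose, 12 fell and 44 did not pass (median log2 fold change -0.09), with 0 that also had a fold change over 2. The share that passed was 25.4%, against 17% of all tested genes. For those that fell it was 20.3% against 8.27%, and for those that rose 5.08% against 8.75%. With library size alone as the scaling, 5 rose and 10 fell, where 1555 and 991 of all 15250 tested genes did. The 12 that fell became 3 without silenced replicate 1, 5 without control replicate 1 and 8 without control replicate 2. Over all tested genes, 591 of 15571, 925 of 15616 and 920 of 15497 fell in these settings, against 1261 of 15250 in the main fit. The 3 that rose became 1 without silenced replicate 2, where 996 of 15622 tested genes rose. The 13 other cytosolic tRNA synthetases had 0 higher and 2 lower (15.4%, where 17% of all tested genes passed and 8.27% fell). HARS was at 115 ± 6.28 against 82.4 ± 4.36 CPM (log2 fold change -0.49, adjusted p = 0.00246, edgeR). TARS was at 623 against 493 CPM (-0.34, adjusted p = 0.0133, edgeR), and its call was lost without control replicate 2 or silenced replicate 1. Of the mitochondrial synthetases 3 fell (17.6%, against 8.27% of all tested genes). These were NARS2 (-0.55, adjusted p = 0.00989, edgeR), SARS2 (-0.52, adjusted p = 0.0322, edgeR) and YARS2 (-0.36, adjusted p = 0.04, edgeR). The last pair passed in only 10 and 6 of 14 alternatives.

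In the 16 genes of the eIF2 machinery, 1 rose and 1 fell (12.5% passed, against 17% of all tested genes). IMPACT, an inhibitor of GCN2 activation, fell from 9.83 ± 0.529 to 5.63 ± 0.817 CPM (log2 fold change -0.80, SE 0.160, adjusted p = 0.00769, edgeR) and passed in all 14 alternatives. PPP1R15B, the constitutive counterpart of PPP1R15A, rose from 125 to 150 CPM (log2 fold change 0.26, adjusted p = 0.0382, edgeR) and passed in 9 of 14 alternatives. Of the 4 lists the largest share passed in the other ATF4 or CHOP targets, with 1 higher and 6 lower of 13 tested (53.8%, median log2 fold change -0.23). The groups did not overlap in 10 of the 13 (76.9%, against 36.6% of all tested genes), lower in 6 and higher in 4. INHBE had the largest log2 fold change, 0.83, with 9 to 30 counts per library, and did not pass (adjusted p = 0.0611, edgeR). TNFRSF10B, a death receptor known as a CHOP target, rose from 119 to 160 CPM (log2 fold change 0.43, SE 0.0743, adjusted p = 0.00369, edgeR). MAP1LC3B, of the autophagosome, MTHFD1L, another mitochondrial one-carbon enzyme, and GPT2, an alanine aminotransferase, fell with log2 fold changes of -0.34, -0.29 and -0.32 (adjusted p = 0.0145, 0.021 and 0.0222, edgeR), and passed in 13, 11 and 10 of 14 alternatives.

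**Figure D5:**
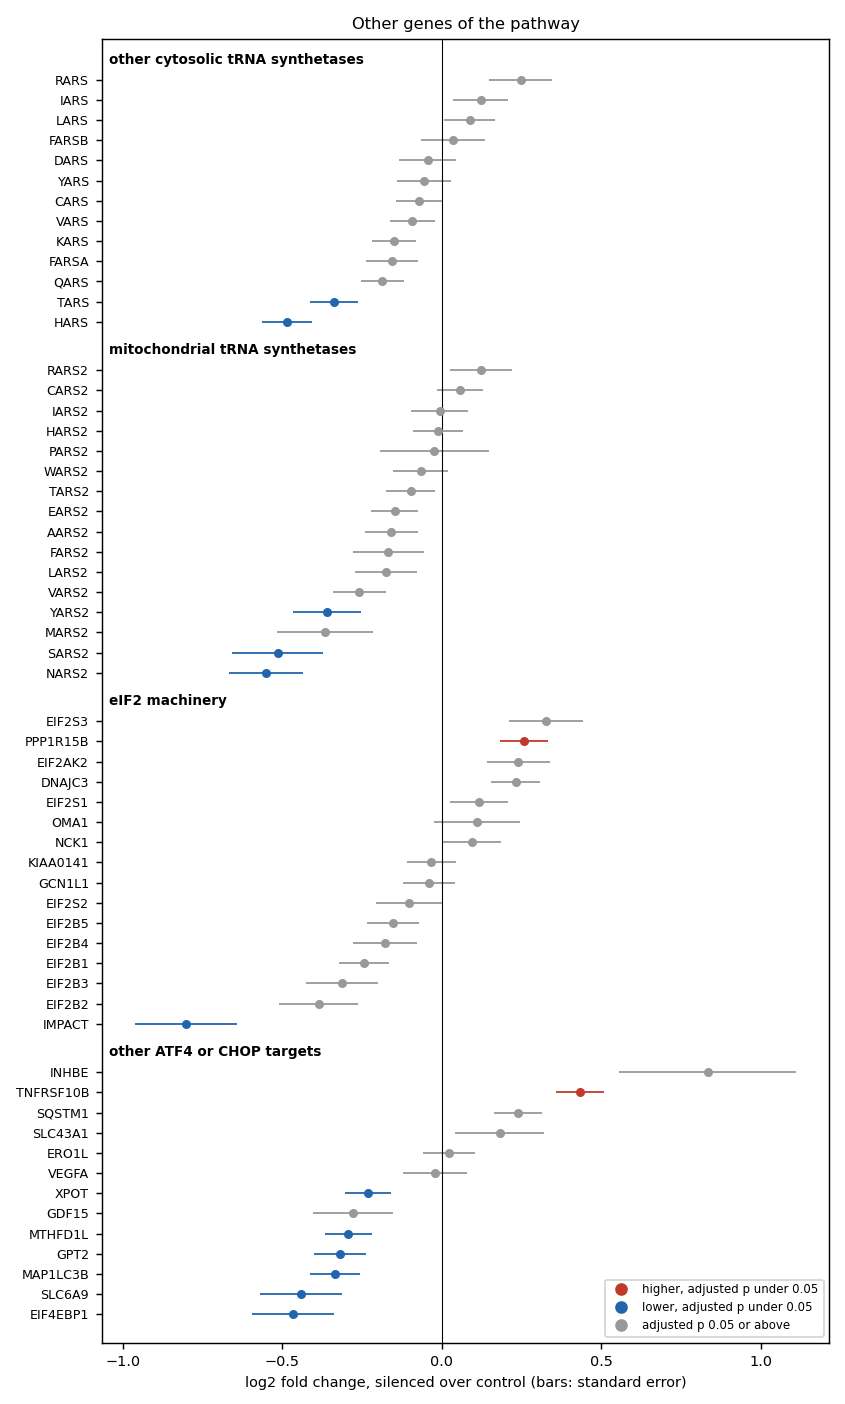
Log2 fold change, silenced over control, of the tested genes of the 4 further lists, 1 left out, with standard errors as bars and the colour marking those that rose, the 12 that fell and the 44 that did not pass. IMPACT at -0.80 is the lowest and INHBE, which did not pass, the highest at 0.83, and the tRNA synthetases lie mostly a little below 0.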

How the data were processed

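RNA was extracted from cells labelled A549 and sequenced on an Ion Proton instrument, 3 libraries per group. Mapping and counting per gene were done by the authors with MapSplice, and the deposited values are whole counts without normalization for 40173 gene symbols. GRCh37 is the build named in the submitters' processing notes. The annotation, the use of strand and the treatment of reads with several matches are not given in the sources used here. All 6 count columns were used and 0 were left out, with groups taken from the sample labels.

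Counts were tested with edgeR 4.0.16 (limma 3.58.1, R 4.3.3) after filterByExpr and scaling by TMM, using its quasi-likelihood F test of silenced against control and Benjamini-Hochberg adjustment over all 15250 tested genes. A gene passed at an adjusted p under 0.05, and was called differentially expressed when its fold change was also over 2. The SE of a log2 fold change is its size over the root of the F statistic. CPM were scaled to the TMM-normalised library size, and RPKM divide CPM by the union exon length in GENCODE 29 on GRCh38. Within groups, libraries varied beyond counting error (pairwise chi-square per degree of freedom 4.18 to 29.2). The highest values, 29.2 and 24.7, were those of the pairs with control replicate 3, and the other pairs reached at most 10.3. That library had 3.22% of its counts on RNA5-8SP6, and the part of this row in the values was not tested. Library totals were 9738291, 11495334 and 17742643 in control and 10102704, 10588505 and 13513170 in silenced replicates 1 to 3, and the common dispersion was 0.0108. The fit was tested on simulated data first.

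The members and all lists were chosen with earlier results of these data known. Members that passed, ATF4 and the kinases were described in every library, up to 3 further members per role by the highest mean CPM, and in each further list up to 4 genes that passed, by the smallest p. CTH, SARS, WARS, NARS, EIF2AK2 and INHBE were named beyond this rule, after their values were seen. The result of 1 gene of the further lists is not reported here. Promoters came from RefSeq (GRCh38.p14, 36 of 45 members matched by symbol), and locations and 3′-UTRs from GENCODE 29, with Python 3.11.15 and pandas 2.3.3. Alternatives were DESeq2 1.42.0, RLE size factors or library size alone for scaling, a filter of at least 1 count anywhere or of 10 counts in each library, a block for the replicate number, thinning to the smallest total, only genes typed mRNA, leaving out each library, an adjusted p under 0.01, and the motif forms TGATGCAA and TGATGNAAT.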

Additional observations from a re-analysis of the deposited data

How the results depend on the processing

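Only the members and the further genes that passed were followed as single genes. Sign changes of further genes that did not pass are therefore not covered. Of the results for the genes followed, 744 under an alternative kept their direction and their side of the threshold, 57 no longer passed, 22 newly passed and 16 changed sign. The signs that changed were all of members near 0 that did not pass. Their log2 fold change ranged, without 1 library at a time, from -0.11 to 0.070 in MTHFD2, -0.053 to 0.062 in SLC7A1, -0.054 to 0.068 in EIF2AK4, -0.047 to 0.13 in SLC7A11, -0.00067 to 0.061 in CEBPG, -0.011 to 0.075 in SHMT2, -0.23 to 0.026 in ALDH1L2 and -0.15 to 0.070 in VLDLR. MTHFD2 was also 0.023 with library size only, and SLC7A1 -4.8e-05 with all genes of at least 1 count. The cause was not tested.

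Members that passed as higher were 5 with library size only and 5 with the replicate block, and those as lower were 6 at an adjusted p under 0.01. The members' median was -0.072 with library size only. Without 1 library at a time it ranged from -0.15 to -0.037, the members called differentially expressed from 1 to 3, the members passing as lower from 8 to 10, and the further genes passing as higher from 1 to 3 and as lower from 3 (without silenced replicate 1) to 10. These further genes passed as higher in 5 with library size only, 6 with all genes of at least 1 count, 7 with the replicate block (where 18 passed as lower), 7 with mRNA only, 5 with DESeq2 and 1 at an adjusted p under 0.01, where 3 passed as lower. TGATGNAAT matched 0 member promoters, and 0.642% of the promoters of all tested genes. Fewer genes passed in all without 1 library (1225 to 1962 of those tested, against 2595), with 634 to 1002 higher and 591 to 1002 lower. Over all tested genes, 1334 passed as higher and 1261 as lower in the main fit. These counts were 1555 and 991 with library size only, and 1714 and 1735 with the replicate block. They were 1554 and 1895 of 25864 with all genes of at least 1 count, 1449 and 1401 of 12258 with mRNA only, and 1116 and 1226 of 15327 with DESeq2.

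The replicate numbers of the deposited columns were not taken to pair the samples. The deviations of control and silenced libraries of the same number correlated at 0.348, 0.399 and 0.0309 over 6235 genes, and silenced replicate 3 correlated best with control replicate 1. A supplementary table of the study lists the silenced libraries in another order, so that what a shared number stands for is uncertain. In that order the correlations were 0.192, -0.27 and 0.0684, and that order was not run as a block. As a block, the numbers raised the genes that passed from 2595 to 3449, and the members from 14 to 20 (5 higher, 15 lower). FAM83H-AS1 stayed between -1.82 and -1.64 in 13 alternatives. It was not run among genes of the type mRNA, where it is not listed. NUPR1, with 5 to 44 counts per library, is the member most limited by depth.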
